A study of Homo sapiens with 6 samples.

Results

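The 5 genes described here are the 4 inhibitor of DNA binding genes, ID1, ID2, ID3 and ID4, and ATOH8, an atonal-related transcription factor gene. They were chosen by name, with earlier results of these data known, as helix-loop-helix genes that respond to bone morphogenetic protein (BMP). All 5 were found among the 22091 gene IDs of the deposited count files. RNA was sequenced from 3 human hepatocellular carcinoma lines, MHCC97L, MHCC97H and HCCLM3. Each line gave 1 library from cells given 2.5 ng/mL TGF-β1 over 4 h and 1 control library of the same time, and all cells were kept in DMEM with fetal bovine serum. As background, MHCC97H and MHCC97L were cloned from a single parental tumour line, and HCCLM3 came from lung metastases of MHCC97H in mice. Nothing in the labels ties the libraries of a line to separate cultures, so a p-value for TGF-β1 measures the spread of the response over the 3 related lines and says nothing of cultures within a line.

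Helix-loop-helix proteins bind DNA as dimers through a basic region. ID proteins lack that region, pair with the E proteins TCF3, TCF4 and TCF12 and keep them off DNA. ID1, ID2 and ID3 are classic targets of BMP signalling, which runs through SMAD1, SMAD5 and SMAD9, while TGF-β, which runs through SMAD2 and SMAD3, is known to lower ID genes in many epithelial cells, and ATOH8 is known in liver cells as a BMP-responsive regulator linked to iron metabolism.

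The annotation (GENCODE 29, hg38) places ID1 at chr20:31605283-31606515 and ID2 at chr2:8678845-8684453, both on the plus strand, ID3 at chr1:23557918-23559794 on the minus strand, and ID4 at chr6:19837386-19840684 and ATOH8 at chr2:85751344-85788066 on the plus strand. The sequences just before the start sites are shown for the genes that the results turn on, from RefSeq windows of GRCh38.p14 that run from 250 bases before to 50 bases after a start. Bases inside annotated exons were left out, except in the short stretches around a motif of ID2 and ID3. Capitals mark a match to CAGCTG, an E-box to which helix-loop-helix dimers can bind, or to CAGAC, a SMAD box. The ATOH8 window is chr2:85753741-85753893 on the plus strand, the ID1 window is chr20:31605039-31605282 on the plus strand, the ID2 stretch is chr2:8681839-8681868 on the plus strand and the ID3 stretch is chr1:23559632-23559660 on the minus strand. The ATOH8 window, the ID2 stretch and the ID3 stretch lie inside the gene spans given above, because RefSeq and GENCODE place the starts differently.
ATOH8 upstream: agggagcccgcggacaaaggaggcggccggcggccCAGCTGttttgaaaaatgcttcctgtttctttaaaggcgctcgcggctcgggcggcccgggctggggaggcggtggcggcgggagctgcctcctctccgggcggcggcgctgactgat
ID1 upstream: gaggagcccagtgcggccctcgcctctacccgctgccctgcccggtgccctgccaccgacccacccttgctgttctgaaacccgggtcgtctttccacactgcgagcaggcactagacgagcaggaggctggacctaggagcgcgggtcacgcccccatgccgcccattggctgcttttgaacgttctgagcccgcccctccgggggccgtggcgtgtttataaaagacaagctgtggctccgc
ID2 stretch: tatttaccacccCAGCTGggctcgcgcccc
ID3 stretch: ggtcttcggcgtCAGACcagccggaggaa

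Counting the base before the start as -1, CAGCTG began at position -215 in the ATOH8 window and -205 in that of ID2, and CAGAC began at -147 in that of ID3. Both strands were searched. Among 35116 RefSeq windows, 17.9% held CAGCTG and 45.3% held CAGAC. The ID4 window held both. None of the 5 windows held GGCGCC, a GC-rich SMAD element found in 19.2% of all windows, or CACGTG, another E-box found in 7.26%. A match describes the letters only.

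Library totals ran from 21257080 to 23242862 expected counts with TGF-β1 and from 18485041 to 22854982 in the controls, and a count of 0 allows up to 3 counts, or 0.129 to 0.162 CPM (counts scaled by library size, with TMM factors elsewhere in the text). Of 9 hepatocyte or hepatocellular markers, 7 reached 1 CPM in some library, while GPC3 was at 0 everywhere and TTR stayed under 1 CPM. The summed level of that list was 6425 to 9123 CPM with TGF-β1 and 5821 to 7572 CPM in the controls, nearly all of it from KRT8 and KRT18, keratins of epithelia in general. The other 7 markers summed to 142, 85.9 and 7.07 CPM with TGF-β1 in MHCC97L, MHCC97H and HCCLM3, against 78.9, 72.7 and 7.01 CPM in their controls. In HCCLM3 that sum was below the summed stellate cell markers of the same libraries, 33.0 CPM with TGF-β1 and 34.0 CPM in the control. Markers of stellate cells summed to 11.96 to 33.0 CPM with TGF-β1 and 10.2 to 34.0 CPM in the controls, those of endothelium to 9.59 to 35.1 CPM with TGF-β1 and 13.2 to 40.8 CPM in the controls, and those of leukocytes to 113 to 251 CPM with TGF-β1 and 127 to 220 CPM in the controls. The leukocyte genes PTPRC and CD3E, the endothelial gene CDH5 and the stellate genes COL1A2 and PDGFRB stayed under 1 CPM in all libraries. Other markers did not: CD68, which made up most of the leukocyte sum, had 109 to 246 CPM with TGF-β1 and 125 to 217 CPM in the controls, and PECAM1 had 5.91 to 23.96 CPM with TGF-β1 and 8.65 to 31.0 CPM in the controls. LUM had 10.4 to 17.7 CPM with TGF-β1 and 9.27 to 16.9 CPM in the controls, and COL3A1 reached 11.7 CPM with TGF-β1 and 14.4 CPM in the control of HCCLM3, against under 1 CPM in the other lines. The part of these markers in the results was not tested.

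The first comparison asked how the 5 genes respond to TGF-β1. ATOH8, ID2 and ID3 fell, by 1.24, 0.68 and 0.51 on the log2 scale over the 3 lines. ID1, the most abundant of the group, did not pass the test, with lower values in 2 lines and a higher value in MHCC97H. ID4 was close to absent and was not tested. In all, 3 of the 4 tested genes passed as lower and none as higher, where 6.65% of the 14176 genes tested passed as lower, 7.79% as higher and 14.4% in either direction. The same 3 were lower in all 3 lines, as were 25.6% of the genes tested. Because the genes were chosen with earlier results of these data known, these shares are no test of the group. Changes are TGF-β1 minus control with a standard error (SE), derived as the size of the change over the square root of the test's F statistic. Each adjusted p came from a quasi-likelihood fit in edgeR with cell line as a term, adjusted by Benjamini-Hochberg over all genes tested. In bulk RNA, fewer cells of a kind and less RNA per cell cannot be told apart.

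ATOH8 had 3.55 CPM in MHCC97L, 4.77 CPM in MHCC97H and 5.08 CPM in HCCLM3 with TGF-β1, against 6.26, 10.6 and 16.1 CPM in the control libraries of the same lines. These values rest on 80, 111 and 105 counts with TGF-β1 and on 144, 222 and 303 counts in the controls. All 3 TGF-β1 libraries lay below all 3 control libraries, as was so of 9.23% of the genes tested. The mean was 4.47 ± 0.807 CPM with TGF-β1 and 10.98 ± 4.92 CPM in the controls (SD, n = 3 lines), and ATOH8 fell by 1.24 on the log2 scale (SE 0.165, 2.36-fold lower, edgeR adjusted p = 0.00205). It stood at rank 50 from the most lowered of the 14176 genes tested.

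ID2, known in many tissues as an inhibitor of differentiation, had 26.9, 22.6 and 22.95 CPM with TGF-β1 in MHCC97L, MHCC97H and HCCLM3, against 44.1, 37.9 and 34.3 CPM in their controls. The TGF-β1 libraries again all lay below the controls. ID2 averaged 24.2 ± 2.41 CPM with TGF-β1 and 38.7 ± 4.96 CPM in the controls (SD, n = 3 lines), and it fell by 0.68 on the log2 scale (SE 0.0789, 1.60-fold lower, edgeR adjusted p = 0.00103). Its exons overlap those of ID2-AS1 on the other strand, and the labels do not say whether strand was used, so reads of these genes cannot be told apart.

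ID3 had 34.1, 56.2 and 78.6 CPM with TGF-β1 in MHCC97L, MHCC97H and HCCLM3, against 45.8, 75.5 and 125 CPM in their controls. It was lower with TGF-β1 within each line, but the groups overlapped, because HCCLM3 with TGF-β1 stood above the controls of both other lines. ID3 averaged 56.3 ± 22.2 CPM with TGF-β1 and 82.2 ± 40.2 CPM in the controls (SD, n = 3 lines), and it fell by 0.51 on the log2 scale (SE 0.0773, 1.42-fold lower, edgeR adjusted p = 0.00427). A further ID without a symbol, ENSG00000283060.1, held the same counts in every library, so the level of ID3 is uncertain. Summed over both IDs the counts were 1536, 2619 and 3245 with TGF-β1, against 2105, 3168 and 4719 in the controls. The change was then -0.51 (edgeR adjusted p = 0.00338), from a sum chosen after the data were seen. That sum adds the same counts again, so its change was bound to match and is no further support.

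ID1 had 303, 423 and 340 CPM with TGF-β1 in MHCC97L, MHCC97H and HCCLM3, against 332, 390 and 517 CPM in their controls. It was lower with TGF-β1 in MHCC97L and HCCLM3 and higher in MHCC97H, and the groups overlapped. The mean was 355 ± 61.1 CPM with TGF-β1 and 413 ± 94.9 CPM in the controls (SD, n = 3 lines), a difference of -0.21 on the log2 scale (SE 0.141, edgeR adjusted p = 0.387). The difference was -0.37 without MHCC97H (edgeR adjusted p = 0.0907), -0.24 without MHCC97L (0.561) and -0.0099 without HCCLM3 (0.936).

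ID4 had 2, 4 and 1 counts with TGF-β1 in MHCC97L, MHCC97H and HCCLM3, against 2, 3 and 0 counts in their controls. These are at or near the limit of 3 counts, and no difference was detectable at this depth.

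**Figure D1:**
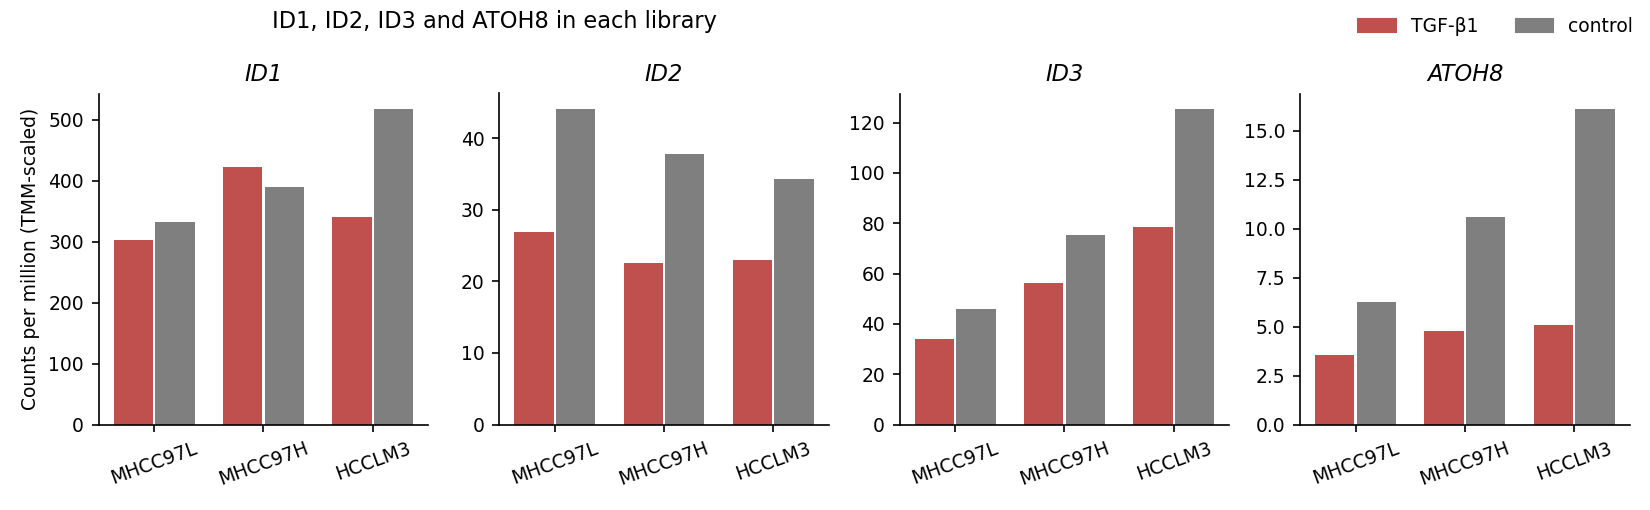
Level of each gene in CPM (counts scaled by library size with TMM, vertical axis of each panel) in the TGF-β1 library and the control library of each line. ATOH8 and ID2 lie lower with TGF-β1 than in any control, ID3 is lower within each line, and ID1 is higher with TGF-β1 only in MHCC97H (423 against 390 CPM).

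**Figure D2:**
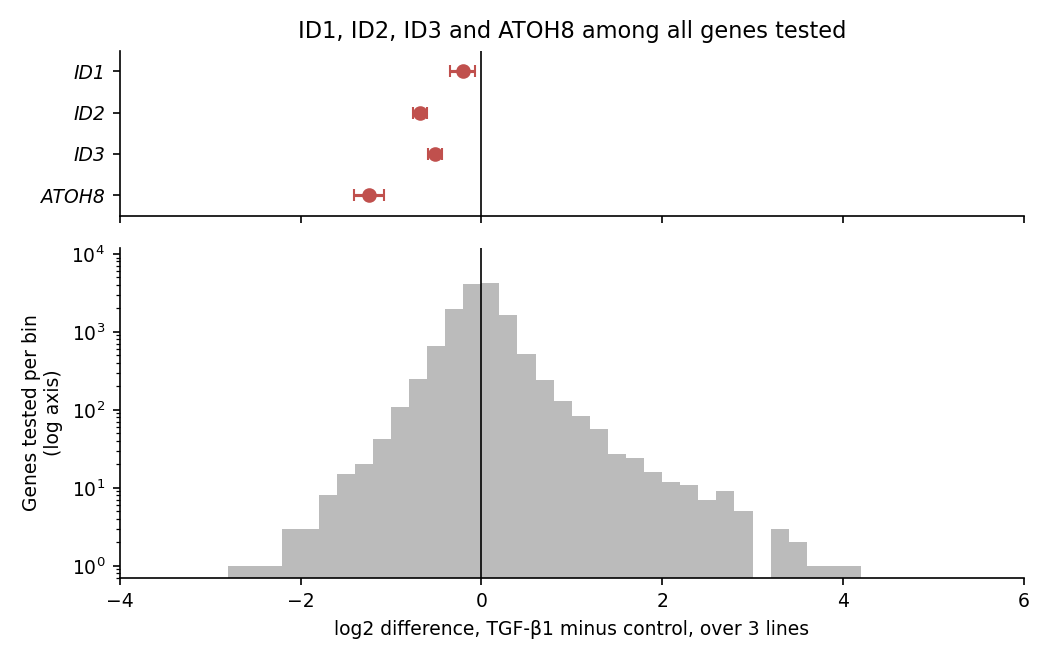
Log2 difference over the 3 lines, TGF-β1 minus control, for ID1, ID2, ID3 and ATOH8 (upper panel, points with SE bars) above the distribution over the 14176 genes tested (lower panel, genes per bin on a log axis). ATOH8 at -1.24 lies far in the lower tail. ID2 and ID3 also lie on the lower side but less far out, at ranks 330 and 657 from the most lowered. In all, 5 genes fall outside the range drawn.

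The counts of higher and lower genes over the whole table moved with the scaling: 1104 were higher and 943 lower with TMM, 962 were higher and 1214 lower with upper quartile factors, and 807 were higher and 1365 lower with library totals. The median log2 difference over all genes was -0.053 with library totals and nearer 0 under the other scalings. Fitted without cell line as a term, ID2 (edgeR adjusted p = 0.181), ID3 (0.712) and ATOH8 (0.270) no longer passed.

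The size of the change within each line is given next. With 1 library per condition it has no test, and the 95% exact binomial intervals cover counting error only. For ATOH8 the log2 difference was -0.80 (-1.23 to -0.41) in MHCC97L, -1.13 (-1.49 to -0.81) in MHCC97H and -1.64 (-1.996 to -1.34) in HCCLM3. The intervals of HCCLM3 and MHCC97L did not overlap. Among genes at 5 CPM or more in either library of the line, ATOH8 ranked 88 of 11065 from the most lowered in MHCC97L, 49 of 11118 in MHCC97H and 18 of 11072 in HCCLM3. In MHCC97L (3.55 against 6.26 CPM) and MHCC97H (4.77 against 10.6 CPM) ATOH8 reached 5 CPM only in the control. It was thus ranked there only through its higher library, and those ranks are no support for its fall.

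ATOH8 was the only one of the 5 genes that was lowered 2-fold or more within a line, which it was in MHCC97H and HCCLM3. Of all genes at 5 CPM or more in either library, 0.657% were lowered that far in MHCC97H, 0.479% in HCCLM3 and 0.407% in MHCC97L. In MHCC97H, ATOH8 counted among them only through its control library. The ID2 difference was -0.71 (-0.86 to -0.56) in MHCC97L, -0.74 (-0.91 to -0.58) in MHCC97H and -0.58 (-0.75 to -0.40) in HCCLM3, with overlapping intervals.

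For ID3 the difference was -0.42 (-0.56 to -0.29) in MHCC97L, -0.42 (-0.53 to -0.32) in MHCC97H and -0.67 (-0.77 to -0.58) in HCCLM3. For ID1 it was -0.13 (-0.18 to -0.08) in MHCC97L, 0.12 (0.07 to 0.16) in MHCC97H and -0.61 (-0.65 to -0.56) in HCCLM3. ID1 and ID3 were thus each lowest relative to control in HCCLM3. No difference in response between lines was tested, because the design leaves no residual degrees of freedom for it.

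**Figure D3:**
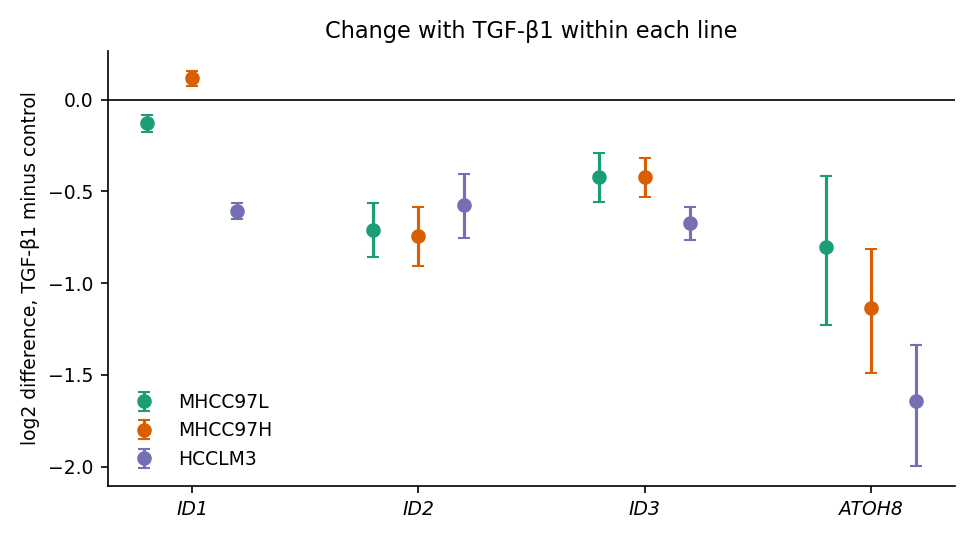
Log2 difference, TGF-β1 minus control, of ID1, ID2, ID3 and ATOH8 in each line, with 95% exact binomial intervals that cover counting error only. ATOH8 is at -0.80, -1.13 and -1.64 in MHCC97L, MHCC97H and HCCLM3, and ID1 is above 0 in MHCC97H alone.

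The lines also differed in the level of these genes, most clearly for ID3. ID3 was highest in HCCLM3, next in MHCC97H and lowest in MHCC97L, and each step passed the test. ATOH8 was higher in HCCLM3 than in MHCC97L, and ID2 was lower there. Each line has 1 TGF-β1 library and 1 control library, so its mean and SD hold both conditions. The error in these tests comes from how the response to TGF-β1 varies over the lines. Their p-values therefore say nothing of the spread between cultures within a line. A fit without 1 library leaves its line with 1 library, so a call lost there shows only dependence on the library left out.

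HCCLM3 against MHCC97L had 2 of the 4 tested genes called as higher and 1 as lower, where 15.0% and 14.8% of all genes tested were, or 29.8% together. ID3 averaged 102 ± 33.0 CPM in HCCLM3 and 40.0 ± 8.25 CPM in MHCC97L (SD, n = 2), a difference of 1.33 (SE 0.0959, edgeR adjusted p = 2.21e-05). ATOH8 averaged 10.6 ± 7.78 CPM in HCCLM3 and 4.91 ± 1.92 CPM in MHCC97L (SD, n = 2), a difference of 1.02 (SE 0.203, edgeR adjusted p = 0.00516). The libraries of these lines overlapped for ATOH8, since HCCLM3 with TGF-β1 was below the MHCC97L control.

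That ATOH8 call was lost without the MHCC97L control (0.66, edgeR adjusted p = 0.154) or the HCCLM3 control (0.65, edgeR adjusted p = 0.0593). ID2 was lower in HCCLM3 at 28.6 ± 7.99 CPM than in MHCC97L at 35.5 ± 12.1 CPM (SD, n = 2), by -0.30 (SE 0.0965, edgeR adjusted p = 0.0459). The ID2 call was lost with DESeq2 (adjusted p = 0.185), without the filter on low counts (edgeR, 0.0611) and without the MHCC97L TGF-β1 library (0.286), the MHCC97L control (0.387) or the HCCLM3 control (0.207). ID1 did not pass, at 0.42 (SE 0.172, edgeR adjusted p = 0.136). Its difference was 0.70 without the HCCLM3 TGF-β1 library, 0.12 without the HCCLM3 control and 0.41 without either MHCC97H library. No call is drawn from these fits, since each leaves a line with a single library.

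HCCLM3 against MHCC97H had 1 of the 4 called, as higher, where 13.3% of all genes tested were called higher, 13.9% lower and 27.2% either way. ID3 averaged 102 ± 33.0 CPM in HCCLM3 and 65.8 ± 13.6 CPM in MHCC97H (SD, n = 2), a difference of 0.61 (SE 0.0938, edgeR adjusted p = 0.00154). ATOH8 differed by 0.40 (SE 0.192, edgeR adjusted p = 0.160), ID1 by 0.05 (SE 0.172, 0.866) and ID2 by -0.06 (SE 0.0971, 0.682), none of which passed. Without the HCCLM3 TGF-β1 library, which leaves HCCLM3 with its control alone, the difference was 0.66 for ATOH8 and 0.35 for ID1. Without the HCCLM3 control it was 0.016 for ATOH8 and -0.24 for ID1.

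MHCC97H against MHCC97L also had 1 of the 4 called, as higher, where 1.37% of all genes tested were called higher, 1.09% lower and 2.45% either way. ID3 averaged 65.8 ± 13.6 CPM in MHCC97H and 40.0 ± 8.25 CPM in MHCC97L (SD, n = 2), a difference of 0.72 (SE 0.0955, edgeR adjusted p = 0.00703). That call was lost without the MHCC97L TGF-β1 library (edgeR adjusted p = 0.0582) or the MHCC97L control (0.179). ATOH8 differed by 0.62 (SE 0.207, edgeR adjusted p = 0.187), ID1 by 0.36 (SE 0.172, 0.394) and ID2 by -0.24 (SE 0.0957, 0.275), none of which passed. Without either HCCLM3 library the difference was 0.63 for ATOH8 and 0.36 for ID1.

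The spread between lines was narrower with TGF-β1 than in the controls for each of these genes. The highest line stood 1.43-fold above the lowest for ATOH8 with TGF-β1 and 2.57-fold above it in the controls. The same ratio was 2.30 with TGF-β1 and 2.74 in the controls for ID3, 1.39 with TGF-β1 and 1.56 in the controls for ID1, and 1.19 with TGF-β1 and 1.29 in the controls for ID2. The highest line for ID1 and the lowest for ID2 were both HCCLM3 in the controls and MHCC97H with TGF-β1. ATOH8, ID3 and ID1 fell most in HCCLM3, their highest line in the controls, so their ratios restate those falls. No share of all genes tested is given, so the narrowing is not a result about these genes. These ratios are descriptions of 3 libraries per condition.

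Levels of different genes can be compared only per length, here in TPM (counts scaled by gene length and by library). ID1 was the main ID transcript in every library. It had 780, 1185 and 854 TPM with TGF-β1 in MHCC97L, MHCC97H and HCCLM3, against 880, 1063 and 1469 TPM in their controls. ID2 ran from 32.3 to 38.8 TPM with TGF-β1 and from 54.4 to 65.4 TPM in the controls, and ID3 from 60.3 to 136 TPM with TGF-β1 and from 83.4 to 244 TPM in the controls. ATOH8 was far lower, at 1.86 to 2.71 TPM with TGF-β1 and 3.37 to 9.27 TPM in the controls.

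ID1 made up 88.7%, 89.2% and 83.6% of the summed TPM of the 4 ID genes with TGF-β1 in MHCC97L, MHCC97H and HCCLM3, against 85.5%, 84.2% and 83.1% in their controls. With ID3 summed over both of its IDs these shares were 83.0%, 82.5% and 73.8% with TGF-β1, against 79.1%, 75.7% and 73.0% in the controls. The summed ID level was 880, 1329 and 1022 TPM with TGF-β1, against 1029, 1262 and 1767 TPM in the controls, so it was higher with TGF-β1 in MHCC97H and lower in the other lines, as ID1 was. The E proteins they bind did not pass the test: TCF3 had 68.2 to 86.3 TPM with TGF-β1 and 68.4 to 83.0 TPM in the controls, TCF12 had 14.8 to 16.4 TPM with TGF-β1 and 15.3 to 19.1 TPM in the controls, and TCF4 was too low to test.

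Other genes of the pathway were read from lists written with earlier results known, and a list's median log2 difference is given beside -0.003 for all genes tested. Counts of list genes stand against 7.79% of all genes tested that passed as higher and 6.65% as lower. All 13 list genes that passed lost the call without cell line as a term (edgeR adjusted p from 0.129 to 0.718). Among 13 BMP ligands, 6 were tested, 1 rose and 1 fell (median -0.17). BMP6, a ligand known for control of iron through the liver, averaged 40.3 ± 4.82 CPM with TGF-β1 and 26.0 ± 3.66 CPM in the controls and rose by 0.63 (SE 0.0796, edgeR adjusted p = 0.00150). BMP2 averaged 45.6 ± 19.2 CPM with TGF-β1 and 60.9 ± 17.2 CPM in the controls and fell by 0.46 (SE 0.0954, edgeR adjusted p = 0.0163), a call lost without MHCC97L (0.123) or MHCC97H (0.0689).

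Among 11 BMP receptors and co-receptors, 9 were tested, 2 rose and none fell (median -0.09). BMPR2, the type II BMP receptor, averaged 64.0 ± 23.9 CPM with TGF-β1 and 34.0 ± 10.3 CPM in the controls and rose by 0.89 (SE 0.0792, edgeR adjusted p = 0.000283). ACVR1, a type I receptor, rose by 0.48 (SE 0.0788, edgeR adjusted p = 0.00630), a call lost without MHCC97L (0.0703).

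Of 6 SMAD genes, 5 were tested, 1 rose and 1 fell (median 0.08). SMAD7, an inhibitory SMAD that both pathways induce, averaged 51.3 ± 11.6 CPM with TGF-β1 and 22.3 ± 3.70 CPM in the controls and rose by 1.19 (SE 0.0810, edgeR adjusted p = 7.84e-05). SMAD1, which carries the BMP signal, fell by 0.40 (SE 0.105, edgeR adjusted p = 0.0368), a call lost with DESeq2 (0.18), without MHCC97L (0.172) and without MHCC97H (0.185). SMAD1 overlaps SMAD1-AS1 on the other strand.

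Of 13 BMP antagonists, 5 were tested and 1 rose (median 0.31). It was FSTL3, a secreted binder of activin, at 307 ± 48.3 CPM with TGF-β1 and 106 ± 48.6 CPM in the controls, which rose by 1.63 (SE 0.219, edgeR adjusted p = 0.0277), a call lost without MHCC97L (0.112) or HCCLM3 (0.0619). Of 9 other BMP target genes, 6 were tested, 2 rose and none fell (median 0.41). These were SMAD7, which is on both lists, and HEY1, a transcriptional repressor, which rose by 0.60 (SE 0.102, edgeR adjusted p = 0.00716).

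Of 7 genes known to act on ID genes in TGF-β signalling, all were tested, none rose and 2 fell (median -0.10). RBL1, a pocket protein, fell by 0.38 (SE 0.0899, edgeR adjusted p = 0.0244), a call lost without MHCC97L (0.187) or MHCC97H (0.119). MYC fell by 0.26 (SE 0.0728, edgeR adjusted p = 0.0440), a call lost without the filter on low counts (0.0657), in a non-robust fit (0.0502), with limma-voom (0.053), and without MHCC97L (0.475) or MHCC97H (0.137). Of 4 inhibitors of cyclin-dependent kinases, which are known E protein targets, all were tested and 3 rose (median 0.93). Any part of ID or E proteins in their rise was not tested.

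CDKN2B rose by 1.55 (SE 0.0953, edgeR adjusted p = 5.54e-05), CDKN1A by 1.21 (SE 0.0909, edgeR adjusted p = 0.000135) and CDKN2A by 0.65 (SE 0.0786, edgeR adjusted p = 0.00124). ACVR1, BMPR2, CDKN2A, CDKN2B and RBL1 shared reads with other genes or overlapped them, and CDKN1A overlaps a transcript on the other strand, so their values are uncertain. Of 6 other atonal-related genes, 1 was tested and it did not pass.

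**Figure D4:**
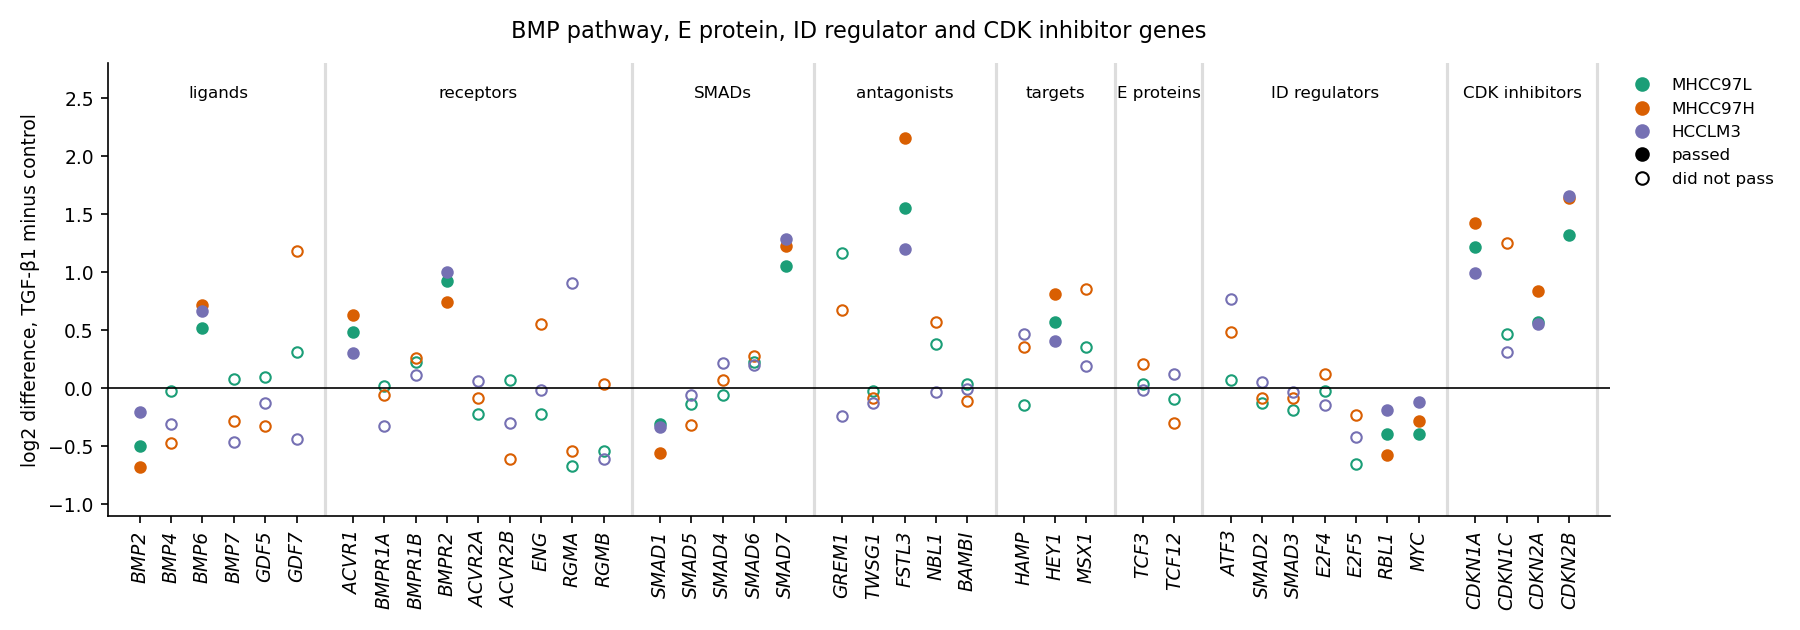
Log2 difference, TGF-β1 minus control, in each line for the tested genes of the pathway lists, in groups; filled points are genes that passed the test over the 3 lines and open points are genes that did not. SMAD7, BMPR2, BMP6, FSTL3 and CDKN2B lie above 0 in all 3 lines, while BMP2, SMAD1, RBL1 and MYC lie below it in all 3.

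The genes most like each of the 4 were found by Pearson's r of log2 CPM over the 6 libraries, which share lines and conditions. ATOH8 was most like DNA2 (r = 0.996), SIPA1L1 (0.994) and FIGNL1 (0.989). ID2 was most like MDN1 (0.998), NAMPT (0.991) and ERI1 (0.991), ID3 was most like RFX5 (0.998), ANKMY1 (0.993) and SNX29 (0.990), and ID1 was most like MPRIP (0.988), CIC (0.985) and EXTL3 (0.984). Pearson's r takes no account of the size of a change. For TGF-β1 against control, MDN1, NAMPT, SIPA1L1 and FIGNL1 passed as lower, and the other genes named here did not pass. With 10439 genes compared over 6 libraries, high values are common: 173 genes had an r above 0.9 with ATOH8, 277 with ID2, 345 with ID3 and 44 with ID1. Among themselves, r was 0.836 for ID3 and ATOH8, 0.815 for ID1 and ID3, 0.787 for ID1 and ATOH8, 0.560 for ID2 and ATOH8, 0.077 for ID2 and ID3 and 0.072 for ID1 and ID2.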

How the data were processed

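For each library the authors deposited a file of expected counts by Ensembl gene. The build hg38 and the tools Cuffdiff 1.3.0, Cufflinks 2.2.1 and TopHat2 2.1.1 are listed without roles, per the submitters' processing notes, and the counting tool was not given in the sources used here. From 63.6% to 64.6% of a library's values were whole numbers. Expected counts were rounded, which changed a total by at most 134 counts. Genes were kept by filterByExpr on treatment, scaled by TMM and tested with edgeR 4.0.16 in R 4.3.3 (robust quasi-likelihood, cell line and treatment as terms, 2 residual degrees of freedom), with Benjamini-Hochberg adjustment at 0.05 over 14176 genes. DESeq2 1.42.0 and limma 3.58.1 gave alternatives. TPM used GENCODE 29 exon lengths. Log2 differences within a line used a prior count of 2. The labels name no molecular identifiers, and intervals and floors therefore cover only counting error.

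Libraries of a line are paired by the labels, which name the line. Their deviations from the condition means correlated at 0.728 in HCCLM3, 0.587 in MHCC97L and 0.456 in MHCC97H. The 5 genes and the gene lists were chosen with earlier results of these data known. The text names all 5 genes, up to 4 passing genes per list by smallest p, the E protein genes, which were named after their values were seen, and the 3 genes most like each tested gene among those with a mean of 5 CPM or more. Gene symbols were matched for 19574 of 22091 IDs, and the other 2517 stayed in the fit.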

Additional observations from a re-analysis of the deposited data

Results flagged for a closer look

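ID1 differed from control in opposite directions in different lines. Its log2 difference, TGF-β1 minus control, was 0.12 in MHCC97H, -0.13 in MHCC97L and -0.61 in HCCLM3. Among genes at 5 CPM or more in either library, ID1 ranked 3904 of 11118 from the most raised in MHCC97H. From the most lowered it ranked 3200 of 11065 in MHCC97L and 227 of 11072 in HCCLM3. The values in MHCC97H and MHCC97L thus lay among those of many other genes. Each value compares 1 library with 1 library, and the difference between the lines was not tested.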

How the results depend on the processing

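Without the replicate block for cell line, 10 genes passed for TGF-β1 against control, 10 higher and none lower, and ID2 (-0.68), ID3 (-0.54) and ATOH8 (-1.29) kept their direction but did not pass. For HCCLM3 against MHCC97L, ID2 was at -0.30 without the filter on low counts and at -0.29 with DESeq2, and passed in neither. ID1 within HCCLM3 was at -0.68 with library totals. With all libraries kept, the tests of ID1, ID2, ID3 and ATOH8 were repeated under the settings tried. A call ended in 5 of these repeats, as given above, and 115 left the result as it was.

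Leaving out 1 line at a time, 611 (without MHCC97L) to 3971 (without HCCLM3) genes passed for TGF-β1, with 981 without MHCC97H. ID2, ID3 and ATOH8 passed each time, with edgeR adjusted p up to 0.0151, 0.0284 and 0.00420. Each such fit has fewer residual degrees of freedom than the 2 of the main fit, so passing in it is weak support. Leaving out 1 library at a time, 2060 to 4643 genes passed for HCCLM3 against MHCC97L and 96 to 1486 for MHCC97H against MHCC97L. For HCCLM3 against MHCC97L, ID1 ran from 0.12 to 0.70, ID2 from -0.37 to -0.21 and ATOH8 from 0.65 to 1.29. For HCCLM3 against MHCC97H, ID1 ran from -0.24 to 0.35, ID2 from -0.14 to 0.024 and ATOH8 from 0.016 to 0.66. The sign reversed for ID1 without the MHCC97H control (-0.19) or the HCCLM3 control (-0.24), and for ID2 without the HCCLM3 control (0.024). For MHCC97H against MHCC97L, ID1 ran from 0.11 to 0.60, ID3 from 0.66 to 0.79 and ATOH8 from 0.28 to 0.87. The cause of these changes was not tested. Depth limits ID4 most, and ATOH8 rests on 80 to 303 counts a library.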
